A study of Homo sapiens with 6 samples.

Results

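The thioredoxin and peroxiredoxin system was followed in AC16 cells through 10 genes, taken by symbol from a table of 58299 Ensembl genes. They encode a thioredoxin (TXN), the thioredoxin reductases TXNRD1 and TXNRD2, the thioredoxin-binding protein TXNIP, sulfiredoxin (SRXN1) and the peroxiredoxins PRDX1, PRDX2, PRDX3, PRDX5 and PRDX6. AC16 is a human ventricular heart muscle line, made by fusing adult heart cells with transformed fibroblasts. Poly(A) RNA was read from 3 control libraries, whose cells had 0.1% DMSO throughout the 72 h, and from 3 treated libraries. The treated cells received 100 nM CDDO-Me for 24 h and then 100 nM doxorubicin for 48 h, so both groups were taken at 72 h. It is not clear from the labels if CDDO-Me was removed before doxorubicin was added. CDDO-Me (bardoxolone methyl) modifies KEAP1 and releases the transcription factor NRF2, and doxorubicin is a topoisomerase II poison used against cancer and known for its harm to the heart. Cells given a single drug were not analysed here, so the contributions of CDDO-Me and doxorubicin cannot be told apart. Nothing in the labels says that the libraries of a group came from separate cultures. The p-values therefore reflect library-to-library spread, and that spread may be technical only.

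Thioredoxin is a small protein that reduces disulfides in other proteins and is itself returned to its reduced form by thioredoxin reductase, a selenium-containing enzyme that draws on NADPH. Peroxiredoxins remove hydrogen peroxide with a reactive cysteine, and most of them depend on thioredoxin for the next round. Sulfiredoxin rescues the typical 2-Cys peroxiredoxins after their cysteine has been over-oxidised, and TXNIP binds reduced thioredoxin and limits its activity. Several genes of the system are textbook NRF2 targets, and heart muscle relies on its mitochondrial branch.

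The libraries held 17150259 to 20193957 counts in genes. Of 10 cardiomyocyte markers, 3 had counts in every library, and TNNI3, MYH6, MYH7, ACTN2, RYR2 and NKX2-5 had 0 counts in the controls. Their summed level was 16.1 to 20.2 TPM (a level per exon length) in controls and 13.1 to 17.7 TPM in treated libraries. GATA4, a transcription factor, carried nearly all of that sum (15.4 to 19.6 TPM in controls and 12.4 to 16.5 TPM in treated libraries) and was called lower, while MEF2C, near 0, was called higher (log2 change 1.67). The 6 fibroblast markers were all detected and summed to 6935 to 7665 TPM in controls and 3816 to 4000 TPM in treated libraries. COL1A1 (means of 3756 TPM in controls and 1231 TPM in treated libraries) and VIM (1865 and 1827 TPM) were the largest parts. Of the 6, 5 were called lower, from COL1A2 (log2 change -0.90) to PDGFRB (-2.42), and VIM (-0.03) was not called. Endothelial markers summed to 0.306 to 0.816 TPM in controls and 1.32 to 1.78 TPM in treated libraries, and leukocyte markers to 0.789 to 1.52 TPM and 2.74 to 3.04 TPM. Both sums were low and higher in every treated library, and PECAM1 (log2 change 1.96) and PTPRC (1.78) were called higher. The part of any shift in cell state in the results was not tested, and in bulk RNA fewer cells of a kind and less RNA per cell cannot be told apart. As points of reference, the NRF2 targets NQO1 and HMOX1 had log2 changes of 2.13 and 4.33, and the p53 targets CDKN1A and MDM2 had log2 changes of 4.30 and 3.46. The transcripts of NFE2L2, which encodes NRF2, and of KEAP1 had log2 changes of 0.07 and -0.09, and edgeR called neither.

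All 10 genes passed the filter on low counts, among 15575 genes tested. Most of them rose: TXNIP, SRXN1, TXNRD1, PRDX5, TXN and PRDX6 were higher in treated cells, by 1.14-fold to 2.70-fold. PRDX3 and TXNRD2, both of the mitochondrion, fell to 0.680 and 0.709 of the control level. PRDX1 and PRDX2, the cytosolic typical 2-Cys peroxiredoxins, were not called. A gene is called where its quasi-likelihood p in edgeR, adjusted over all tested genes, is below 0.05. Of the 10 genes, 8 were called, where 63.5% of all tested genes were. The 6 higher stand beside a background of 32.3% called higher, and the 2 lower beside one of 31.2% called lower. The groups did not overlap in 8 of the 10 genes, against 66.7% of all tested genes. In 6 of these the treated libraries were the higher ones, against 34.1% of all tested genes. The median log2 change of the 10 genes was 0.25, and that of all tested genes was 0.02.

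**Figure D1:**
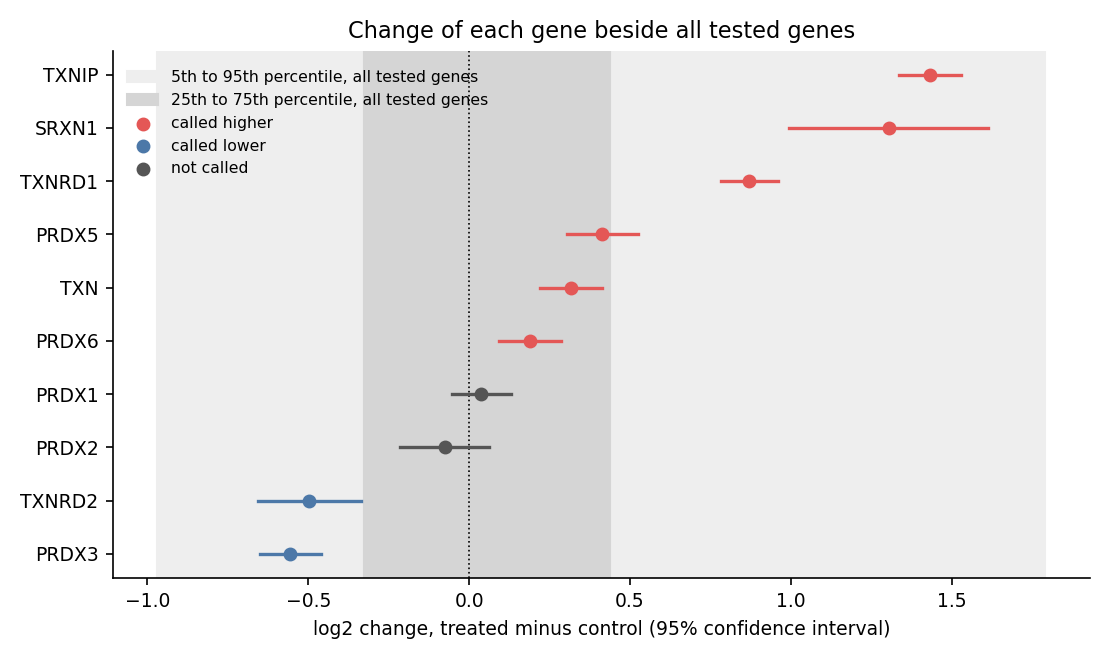
Log2 change of each gene (treated minus control; points are the edgeR estimates and bars their 95% confidence intervals, 3 libraries per group), over bands that hold the middle of all 15575 tested genes. TXNIP, SRXN1 and TXNRD1 lie above the 25th to 75th percentile band (-0.33 to 0.44), PRDX3 and TXNRD2 lie below it, and none of the 10 lies outside the 5th to 95th percentile band (-0.97 to 1.79).

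TXN (ENSG00000136810, GRCh38 chromosome 9, 110243811 to 110256640, minus strand) encodes the cytosolic and nuclear thioredoxin. Its TMM-normalised counts, per 1000000 in genes (CPM), were 243.9, 273 and 264 in the control libraries and 339, 327 and 307 in the treated libraries. Every treated library lay above every control library, though the gap from the highest control to the lowest treated library was small. The mean rose from 260.1 ± 14.8 to 324 ± 16.0 CPM (SD, n = 3), a fold of 1.25 with a 95% confidence interval of 1.17 to 1.33 (log2 change 0.32, SE 0.049, edgeR adjusted p = 5.96e-08). Its mitochondrial counterpart TXN2, of the wider list, went from 120.1 ± 5.52 to 112 ± 3.62 CPM (SD, n = 3). That change was not called (log2 change -0.10, SE 0.053, edgeR adjusted p = 0.0898).

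TXNRD1 (ENSG00000198431, chromosome 12, 104215779 to 104350305, plus strand), the cytosolic thioredoxin reductase, had by far the most counts of the set. It stood at 798, 822 and 802 CPM in controls and at 1428, 1510 and 1492 CPM in treated libraries. The groups were far apart against a spread of 1.58% (coefficient of variation) among controls and 2.89% among treated libraries. The fold was 1.83 with a 95% confidence interval of 1.72 to 1.94 (log2 change 0.87, SE 0.044, edgeR adjusted p = 1.93e-26). TXNRD2 (ENSG00000184470, chromosome 22, 19875517 to 19941992, minus strand), the mitochondrial reductase, moved the other way. It stood at 40.5, 36.8 and 33.8 CPM in controls and at 28.5, 23.6 and 26.6 CPM in treated libraries, again without overlap. Its fold was 0.709, with a 95% confidence interval of 0.634 to 0.792 (log2 change -0.50, SE 0.081, edgeR adjusted p = 2.35e-07).

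Both reductases carry selenocysteine at their end, read from a TGA codon that would otherwise stop translation, and this shared feature is shown because the transcripts that hold it moved in opposite directions. The coding ends below are from GENCODE release 29 on GRCh38, 5′ to 3′ on the gene's strand, at chr12:104348395-104348421 (plus strand) and chr22:19877105-19877131 (minus strand). Capitals mark the annotated selenocysteine codon, and the last codon is the true stop.
TXNRD1: atcctccaggctggctgcTGAggttaa
TXNRD2: cccacggtgacaggctgcTGAgggtaa
In each, 1 codon stands between the selenocysteine codon and the stop, and 11 of the last 12 bases are identical.

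TXNRD1 has 2 annotated RefSeq starts in the promoter table, and the window of 250 bases before to 50 after each start held the core of the antioxidant response element, the sequence NRF2 binds with small MAF proteins. The search was for TGACNNNGC on both strands, a motif that overlaps the AP-1 site TGANTCA in part. The stretches below are RefSeq sequence on GRCh38.p14, plus strand, at chr12:104215629-104215769 for the upstream start and chr12:104286919-104286948 for the downstream start. The longer one runs from -150 to -10, counted with the start as 0. Capitals mark the match, which lies on the gene's opposite strand in the shorter stretch.
TXNRD1 upstream start: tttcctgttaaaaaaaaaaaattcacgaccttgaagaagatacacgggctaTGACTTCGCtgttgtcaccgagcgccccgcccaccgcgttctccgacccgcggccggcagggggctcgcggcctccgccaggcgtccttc
TXNRD1 downstream start: agtggatttctGCTTTGTCAttctgactct
Another match, TGACGGAGC on the opposite strand, ended at the upstream start itself. Of the 8 genes of the set that had a promoter window (PRDX1 and PRDX6 had none in the table), TXNRD1 was the one with this motif, and 16.1% of all 27305 genes in the table held it. TGANTCA was in the windows of 9.37% of all genes and in none of the 8. A match describes the letters of a window and is no evidence of binding.

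TXNIP (ENSG00000265972, chromosome 1, 145992435 to 145996600, minus strand) had the largest estimated increase of the set, with an interval that overlaps that of SRXN1. It stood at 130, 129 and 123 CPM in controls and at 343, 344 and 341 CPM in treated libraries. The treated libraries lay far above all controls. Their coefficient of variation of 0.424% is below the sampling noise of 6994 to 7233 counts, so it does not measure how well libraries repeat. The fold was 2.70 with a 95% confidence interval of 2.53 to 2.89 (log2 change 1.43, SE 0.048, edgeR adjusted p = 1.13e-35). Transcripts of opposing roles thus rose together: TXNIP limits thioredoxin, and TXN and TXNRD1 supply it in its reduced form.

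TXNIP is known for its response to glucose through MLXIP (MondoA) and its partner MLX, which bind a carbohydrate response element. The strict form of that element, a pair of CACGTG boxes with a fixed spacer, was in the window of no gene of the set and of 2 genes in the whole table, on either strand. A looser form chosen after seeing the data, with boxes of CACGNG, matched TXNIP, 1 of 20 genes among 27305 that held it. Because the form was chosen in this way, the match only describes letters, and the low count lends it no weight. The stretch is RefSeq sequence on GRCh38.p14 at chr1:145996609-145996729, minus strand, from -150 to -30 with the start as 0, and capitals mark the match.
TXNIP: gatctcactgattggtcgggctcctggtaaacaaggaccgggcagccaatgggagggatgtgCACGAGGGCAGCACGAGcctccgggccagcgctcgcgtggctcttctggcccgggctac
MLXIP stood at 109.9 ± 4.51 CPM in controls and 112 ± 2.91 CPM in treated libraries (SD, n = 3) and was not called (log2 change 0.02, edgeR adjusted p = 0.730). MLX fell from 64.1 ± 2.44 to 47.5 ± 2.20 CPM (log2 change -0.43, edgeR adjusted p = 1.81e-08).

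**Figure D2:**
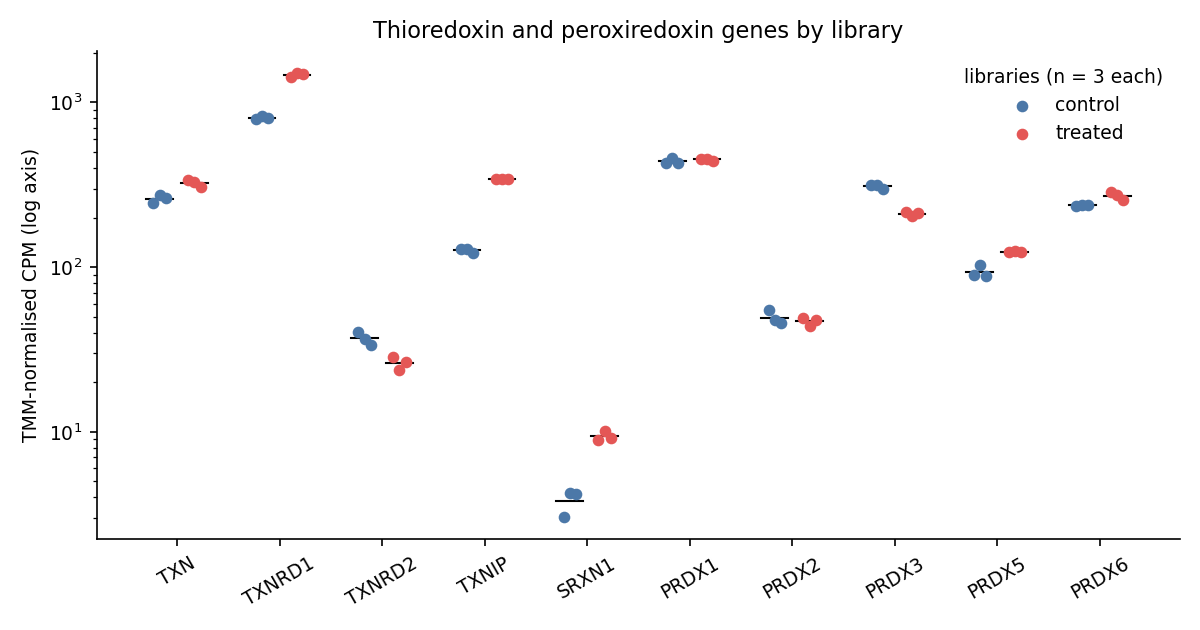
TMM-normalised CPM of each gene in each of the 6 libraries on a log axis; points are libraries and horizontal lines the group means. The groups are separate for every gene except PRDX1 and PRDX2, and SRXN1 has the widest spread among controls (3.04 to 4.23 CPM).

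SRXN1 (ENSG00000271303, chromosome 20, 646615 to 653370, minus strand), sulfiredoxin, rose from a low count. It had 53, 70 and 77 counts in the control libraries and 185, 207 and 195 in the treated libraries, which is 3.04, 4.23 and 4.17 CPM against 8.91, 10.2 and 9.20 CPM. The groups did not overlap, although the controls varied by 17.5% (coefficient of variation). The fold was 2.47 with a 95% confidence interval of 1.99 to 3.06 (log2 change 1.30, SE 0.15, edgeR adjusted p = 4.50e-11).

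The level of SRXN1 hangs on which exon length its counts are divided by. Its fold cannot change with that length, as the counts stay the same. What the fold would be with reads of the shared bases counted was not tested. Of its 2698 exon bases, 84.95% also belong to a readthrough gene on the same strand (ENSG00000270299), whose counts summed to 7 over the controls and to 3 over the treated group. Reads in shared bases were in general not counted for both genes: of 1840 genes that lie wholly within exons of others, 1782 had 0 counts. Over all exon bases SRXN1 stood at 6.18 ± 1.08 TPM in controls and 15.3 ± 1.08 TPM in treated libraries. Over the 406 bases it shares with no other gene, a choice made after seeing the data, the levels were 41.1 ± 7.20 and 102 ± 7.19 TPM (SD, n = 3).

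The peroxiredoxins divided by member. PRDX1 (ENSG00000117450, chromosome 1, 45511036 to 45523047), the most abundant peroxiredoxin of these cells, stood at 430.5, 458 and 427 CPM in controls and at 454, 455 and 442 CPM in treated libraries. All 3 treated values lay within the range of the controls, and the fold of 1.03 had a 95% confidence interval of 0.964 to 1.09 (edgeR adjusted p = 0.476). Scaling by total counts only put the median of all tested genes at a log2 change of 0.15 in place of 0.02, and PRDX1 was then called higher (log2 change 0.17, edgeR adjusted p = 9.19e-04). MMACHC, a gene on the opposite strand that shares 24.9% of the PRDX1 exon bases, fell (log2 change -0.68, edgeR adjusted p = 7.59e-08).

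PRDX2 (ENSG00000167815, chromosome 19, 12796820 to 12801859), a close relative of PRDX1 in the cytosol, stood at 54.6, 47.5 and 46.0 CPM in controls and at 49.0, 43.7 and 47.8 CPM in treated libraries. The groups overlapped, and the fold of 0.948 had a 95% confidence interval of 0.862 to 1.04 (edgeR adjusted p = 0.336). The log2 change of PRDX2 was -0.08, and 0.05 with total-count scaling, where it was not called either.

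PRDX3 (ENSG00000165672, chromosome 10, 119167703 to 119178833), the typical 2-Cys peroxiredoxin of the mitochondrial matrix, fell. It stood at 316, 317 and 298 CPM in controls and at 216, 203 and 214 CPM in treated libraries, so the lowest control was well above the highest treated library. The fold was 0.680 with a 95% confidence interval of 0.637 to 0.726 (log2 change -0.56, SE 0.047, edgeR adjusted p = 3.25e-16).

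PRDX5 (ENSG00000126432, chromosome 11, 64318088 to 64321811), an atypical 2-Cys enzyme found in mitochondria, peroxisomes and cytosol, rose. It stood at 89.7, 103 and 87.9 CPM in controls and at 124, 126 and 124 CPM in treated libraries. Control replicate 2 was the highest of its group and still below every treated library. The fold was 1.33 with a 95% confidence interval of 1.23 to 1.44 (log2 change 0.41, SE 0.055, edgeR adjusted p = 1.63e-09).

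PRDX6 (ENSG00000117592, chromosome 1, 173477266 to 173488807), a 1-Cys peroxiredoxin that uses glutathione in place of thioredoxin and also acts on phospholipids, had the smallest called increase. It stood at 237, 239 and 239 CPM in controls and at 286, 275 and 255 CPM in treated libraries. Treated replicate 3 was the lowest of its group and lay above all controls. The fold was 1.14 with a 95% confidence interval of 1.07 to 1.22 (log2 change 0.19, SE 0.048, edgeR adjusted p = 4.64e-04). PRDX4, the peroxiredoxin of the endoplasmic reticulum, which is in the wider list, rose from 89.7 ± 5.00 to 104.7 ± 2.45 CPM (SD, n = 3; log2 change 0.22, edgeR adjusted p = 3.27e-04).

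Summed over the 5 peroxiredoxins, the transcript pool was 2657 ± 96.1 TPM in controls and 2772 ± 50.1 TPM in treated libraries (SD, n = 3), and the groups overlapped. In its make-up over all exon bases the groups did not overlap for PRDX1, PRDX3, PRDX5 and PRDX6 and overlapped for PRDX2. The differences were largest for PRDX3 and PRDX5. For PRDX1 the groups nearly touched, at 46.99% in control replicate 1 and 46.96% in treated replicate 2. Its share is taken over all its exon bases, 24.9% of which MMACHC shares. Over unshared bases the shares of PRDX1 overlapped between the groups, so its separation depends on the exon length used. PRDX3 made up 15.4%, 14.7% and 14.8% of the pool in controls and 9.81%, 9.36% and 10.1% in treated libraries. PRDX5 made up 16.7%, 18.2% and 16.7% in controls and 21.5%, 22.1% and 22.2% in treated libraries. PRDX1 was 47.4% ± 0.35 of the pool in controls and 46.7% ± 0.32 in treated libraries, and PRDX2 was 3.88% ± 0.39 and 3.53% ± 0.21. PRDX6 was 16.6% ± 0.59 and 18.1% ± 0.73 of the pool. The shares add up to a fixed total, so they are not independent of each other.

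**Figure D3:**
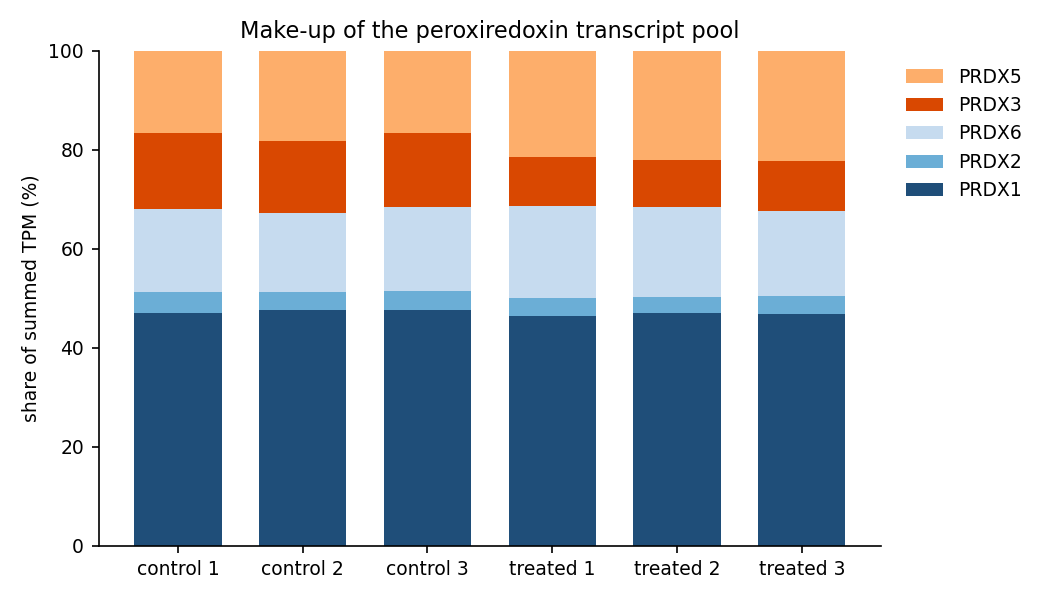
Share of each peroxiredoxin in the summed TPM of PRDX1, PRDX2, PRDX3, PRDX5 and PRDX6, 1 bar per library. On average PRDX3 makes up 15.0% of the pool in controls and 9.75% in treated libraries, and PRDX5 makes up 17.2% and 22.0%.

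Ratios between transcripts within a library show the balance of partners free of library scaling. The length-scaled ratio of TXNRD1 to TXN was 0.557, 0.513 and 0.518 in controls and 0.718, 0.787 and 0.828 in treated libraries. TXNRD1 to TXNRD2 went from 27.4 ± 2.56 to 70.8 ± 8.61, a 2.58-fold shift towards the transcript of the cytosolic enzyme. TXNIP to TXN was 0.167, 0.149 and 0.146 in controls and 0.319, 0.332 and 0.350 in treated libraries, a 2.17-fold shift.

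SRXN1 to its substrates PRDX1, PRDX2 and PRDX3 together was 0.00351 ± 0.00062 in controls and 0.00920 ± 0.00070 in treated libraries, a 2.64-fold shift. Over unshared bases only, the same ratio was 0.0187 ± 0.0033 and 0.0482 ± 0.0036. TXN2 to TXN went from 0.258 ± 0.023 to 0.193 ± 0.0055 (SD, n = 3). In these 5 ratios the groups did not overlap, and each had the smallest p that 3 against 3 libraries can give (exact permutation test, two-sided, p = 0.10, or 0.12 adjusted over the 6 ratios), so none can pass 0.05. The ratio of PRDX3 plus PRDX5 to PRDX1 plus PRDX2 plus PRDX6 was 0.474 ± 0.015 and 0.465 ± 0.012, with overlapping groups (exact permutation test, p = 0.50), as the changes of PRDX3 and PRDX5 offset each other in the sum.

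**Figure D4:**
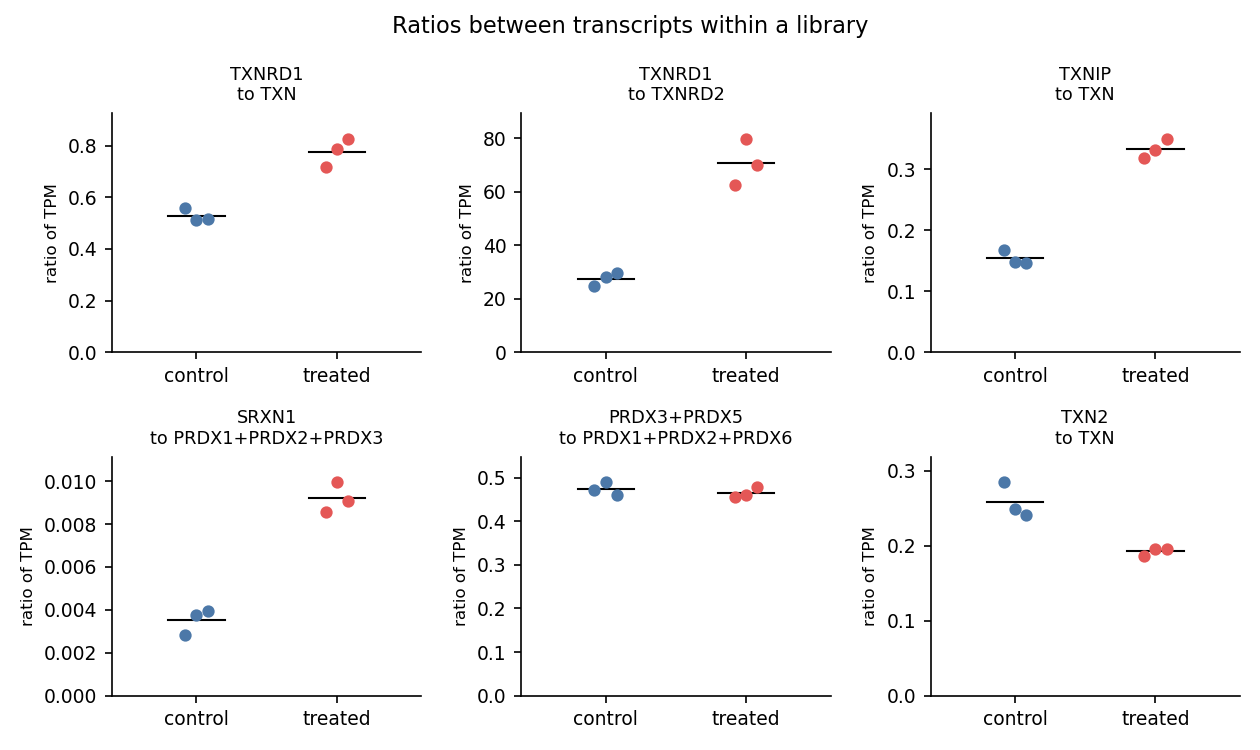
Ratio of length-scaled levels (TPM) for 6 pairs or sums of transcripts, each axis starting at 0; points are libraries and lines the group means. The treated libraries lie above all controls for TXNRD1 to TXN, TXNRD1 to TXNRD2, TXNIP to TXN and SRXN1 to its substrates, lie below them for TXN2 to TXN, and overlap them for PRDX3 plus PRDX5 against the other peroxiredoxins.

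In controls the order by level was PRDX1 (1260 ± 48.3 TPM), TXN (995.5 ± 56.5 TPM), TXNRD1 (526 ± 8.32 TPM), PRDX5 (457 ± 39.8 TPM), PRDX6 (439.9 ± 2.46 TPM) and PRDX3 (397 ± 13.5 TPM). TXNIP (153 ± 4.63 TPM), PRDX2 (103 ± 9.52 TPM), TXNRD2 (19.3 ± 1.76 TPM) and SRXN1 (6.18 TPM) followed. PRDX5 and PRDX6 did not differ beyond their spread. PRDX1 stood at the 99.5th percentile of tested protein-coding genes by level and TXN at the 99.4th, while TXNRD2 stood at the 43.3rd.

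In treated libraries TXN (1240 ± 61.4 TPM) and PRDX1 (1293 ± 20.6 TPM) overlapped, and TXNRD1 reached 962 ± 27.8 TPM. TXNIP (413 ± 1.75 TPM) stood above PRDX3 (270.2 ± 8.72 TPM), the reverse of the control order. Over unshared bases PRDX1 lay higher, at 1677 ± 64.3 TPM in controls and 1722 ± 27.4 TPM in treated libraries, and did not overlap TXN. On that scale SRXN1 (95.95 to 109.7 TPM) overlapped PRDX2 (106 to 119 TPM) in treated libraries, and SRXN1 stood above TXNRD2 in both groups. The table holds 17 pseudogenes named after members, and the counts assigned to them came to at most 0.214% of those of the parent gene. Reads that match both a parent and a copy may have been dropped from both, which these counts do not measure.

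Genes around the system were read from 7 lists with 62 members, of which 57 were tested. Of these, 24 were higher and 19 lower (median 0.07 on the log2 scale), against 32.3% higher and 31.2% lower among all tested genes. With total-count scaling 31 were higher and 14 lower, and the background moved the same way, to 40.8% of all tested genes higher and 23.1% lower.

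Among thioredoxin relatives and sestrins 8 of 21 tested were higher, 6 were lower, and the median log2 change was 0.03. The sestrins, stress-induced regulators of the growth kinase mTORC1, had the largest increases. SESN2 rose from 33.1 ± 2.23 to 223 ± 5.51 CPM (log2 change 2.75) and SESN1 from 12.6 ± 1.64 to 54.7 ± 0.40 CPM (log2 change 2.12). Those that fell included TMX3 (-0.75), TXNDC5 (-0.53) and TMX1 (-0.50 on the log2 scale), oxidoreductases of the endoplasmic reticulum. TXNDC5 shares 60.6% of its exon bases with other genes. TXNRD3, the reductase known from testis, was low and not called (5.29 ± 0.44 and 5.37 ± 0.75 CPM, log2 change 0.02, edgeR adjusted p = 0.928).

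The glutathione-linked counterparts showed 3 of 5 higher and 1 lower, and their median was 0.27 (log2). GLRX, glutaredoxin of the cytosol, rose from 40.0 ± 1.69 to 73.6 ± 3.04 CPM (log2 change 0.88). GSR, glutathione reductase, rose from 68.0 ± 4.15 to 111 ± 6.78 CPM (log2 change 0.70). GLRX5, a mitochondrial glutaredoxin of iron-sulfur cluster assembly, fell by 0.18 on the log2 scale. Of the methionine sulfoxide reductases, which repair oxidised methionine with electrons from thioredoxin, none of 4 was higher and 2 were lower, MSRB3 (-0.56) and MSRB1 (-0.53 on the log2 scale), with a median of -0.23.

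Other peroxidases and superoxide dismutases split evenly, 4 of 9 higher and 4 lower, and their median was 0.13 (log2). GPX1, the main cytosolic glutathione peroxidase, rose from 172 ± 8.19 to 388 ± 17.6 CPM (log2 change 1.18). GPX7, a peroxidase of the endoplasmic reticulum, fell from 9.85 ± 0.26 to 3.83 ± 0.44 CPM (log2 change -1.36). Among the alpha-arrestins and glucose-sensing factors, 3 of 6 were higher and 2 lower, with a median of 0.25. ARRDC4, which like TXNIP is known to respond to glucose, rose from 5.57 ± 1.19 to 25.8 ± 1.73 CPM (log2 change 2.20), and ARRDC1 rose by 0.50.

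The genes of selenocysteine incorporation, on which both reductases depend, were 3 of 7 higher and 3 lower, and their median was -0.12 (log2). SEPHS2, which makes the selenium donor, rose from 105.1 ± 2.83 to 156 ± 6.04 CPM (log2 change 0.57), and its relative SEPHS1 fell from 110.9 ± 4.37 to 61.5 ± 3.24 CPM (log2 change -0.85). Among thioredoxin clients 3 of 5 were higher and 1 lower, with a median of 0.12. RRM2B, the p53-inducible small subunit of ribonucleotide reductase, rose from 54.6 ± 3.58 to 195 ± 8.06 CPM (log2 change 1.84), and RRM2, its counterpart of dividing cells, from 341 ± 7.98 to 479 ± 16.7 CPM (log2 change 0.49). The edgeR adjusted p of the called genes named from these lists lay between 1.64e-46 for SESN2 and 0.0289 for GLRX5.

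**Figure D5:**
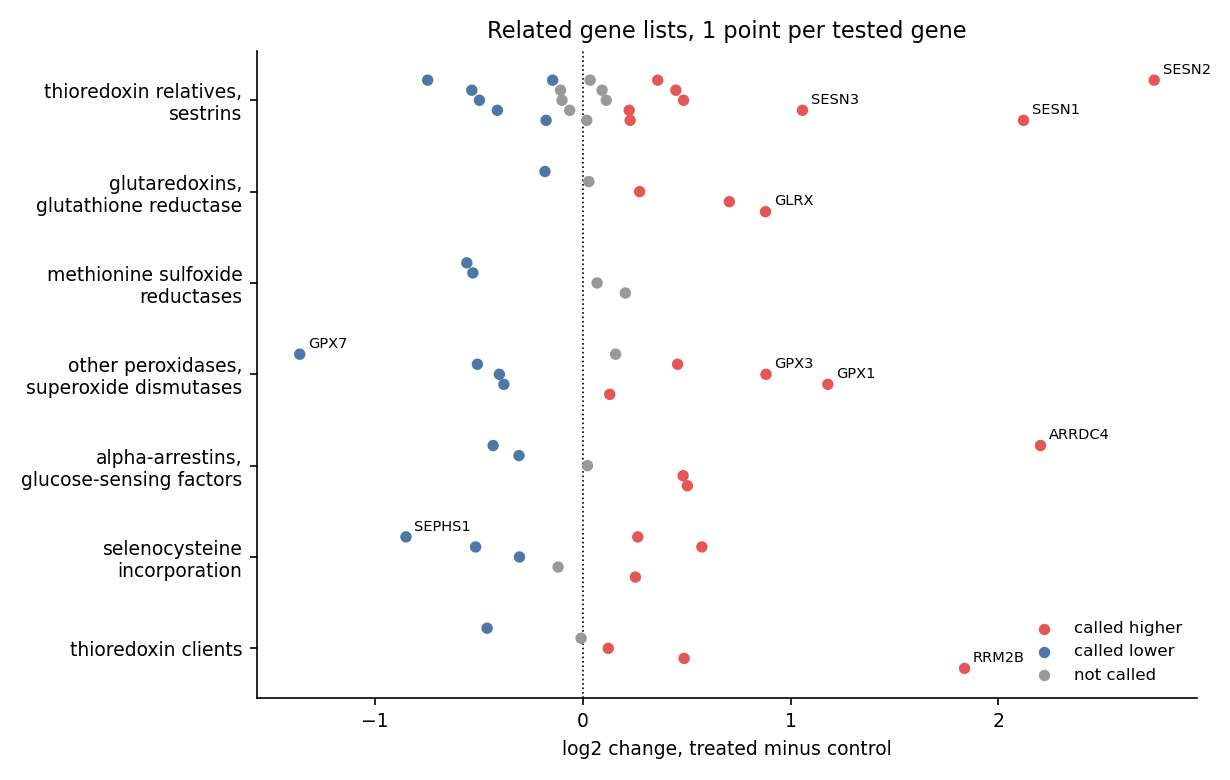
Log2 change (treated minus control) of the 57 tested genes of the 7 related lists, 1 point per gene, coloured by the edgeR call; the genes with the largest changes are labelled. Points lie on both sides of 0 in each list, with SESN2 (2.75), ARRDC4 (2.20), SESN1 (2.12) and RRM2B (1.84) farthest to the right and GPX7 (-1.36) farthest to the left.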

How the data were processed

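RNA was measured in 6 libraries of AC16 cells. Unstranded, poly(A)-selected TruSeq libraries were made, per the labels' protocols. The authors deposited raw counts per gene, whole numbers for 58299 Ensembl identifiers with exon coordinates and lengths, per the file headers. STAR, SAMtools, Subread, featureCounts and the GRCh38 build are named without versions, per the submitters' processing notes. Settings for assigning reads to genes were absent from these sources. Totals ran from 17150259 to 20193957, and no pair of replicates was alike within sampling noise (chi-square over degrees of freedom 3.00 to 4.01).

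Symbols came from a table of gene names. The 15575 genes that passed filterByExpr (group-wise, minimum count 10) were normalised by TMM and tested with edgeR 4.0.16 (R 4.3.3; glmQLFit and glmQLFTest, prior count 0.125, Benjamini-Hochberg, 0.05). Standard errors were taken as the absolute log2 change divided by the root of F. The script was tested on simulated data with known changes. TPM was TMM-scaled CPM per exon length, rescaled to a mean library sum of 1000000. Same-numbered libraries did not deviate together from their group means (r = -0.022 to -0.0071), so no pairing was used.

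The 10 members and all lists were chosen with earlier results of these data known. Named genes are the members, in each list the 2 called genes of at least 5 CPM with the largest change, up to 3 that moved against most of a list, and 6 reference genes. TXN2, PRDX4, TXNRD3, MLX, MLXIP and MMACHC were named after their values were seen. Alternatives were other scalings and filters, DESeq2 1.42.0, limma-voom 3.58.1, a replicate block, each library left out, an adjusted p of 0.01 and glmTreat against 1.5-fold. Levels over unshared exon bases and the looser carbohydrate response element were added after seeing the data. Exact permutation tests used scipy 1.17.1 (Python 3.11.15). No protein sequence was used here.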

Additional observations from a re-analysis of the deposited data

How the results depend on the processing

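Over 16 alternatives, the 10 genes kept their call in 154 of 160 values; PRDX2, never called, changed sign with total-count scaling (0.05). TXNIP (1.40 to 1.56), SRXN1 (1.16 to 1.43) and TXNRD1 (0.85 to 1.00) passed in all 16. Tested against a 1.5-fold change with glmTreat, which asks for a larger effect, 3 members were called higher (TXNIP, SRXN1 and TXNRD1) and 0 lower. Of the wider lists 9 were higher and 3 lower. Of all 15575 tested genes 2993 were called instead of 9893, 1852 of them higher and 1141 lower, so higher calls were the larger part of the background too. Total-count scaling called 7 members higher, the added one being PRDX1 (0.17), where 40.8% of all tested genes were called higher and 23.1% lower. The replicate block gave 6 members higher and 2 lower, and changed no call of a member; 9653 genes were then called. Leaving out each library in turn also gave 6 higher and 2 lower in every fit, with 9283 to 9695 genes called. The 6 ratios kept their direction without any 1 library. Levels over unshared bases divide the same counts by another fixed length. A ratio of 1 gene to 1 gene therefore cannot change on the log2 scale, and only ratios with a sum of genes can. For SRXN1 to its substrates the log2 difference was 1.38 over unshared bases, against 1.40 over all bases. For PRDX3 plus PRDX5 to the other peroxiredoxins it was -0.02, against -0.03. SRXN1, with 53 to 77 counts in controls, is the least precise member (SE 0.15).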
